A study of Mus musculus with 8 samples.

Results

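MitoNegative CD8 T cells recovered from tumor were compared with MitoNegative CD8 T cells recovered from the spleen of hosts with the same code, 7 days after transfer. Members were the cells carrying hashtag 2 (spleen) or hashtag 4 (tumor) in the 3 d7 libraries. A cell needed at least 500 detected genes, under 15% mitochondrially encoded UMIs, and a top hashtag of at least 10 UMIs that was at least 3 times the next. These rules gave 6 of the 18 hashtagged samples of the series and 5455 of its 16404 cells, of which 5224 were from spleen and 231 from tumor.

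The study cultured activated mouse CD8 T cells of 3 donor mice with bone marrow stromal cells (BMSCs) whose mitochondria carried the red fluorescent protein dsRed. T cells that had taken up dsRed were sorted as MitoPositive and those without it as MitoNegative, so the name gives the state at transfer and not at d7. Both sorts were transferred into B6 mice bearing B16KVP, a line of the mouse melanoma B16, and were re-isolated by flow cytometry. Each d7 library pooled 4 samples of 1 donor, namely spleen and tumor of both arms. The deposited hashtag list gives spleen and tumor of an arm the same host code, and the 2 arms of a donor different codes. Whether a code stands for 1 recipient mouse or for pooled mice is not given in the sources used here, so the pairing is by host code. Every group had therefore been activated, cultured with BMSCs and exposed to a tumor-bearing host, and no group held untransferred or unexposed T cells at d7.

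A CD8 T cell that meets its antigen in a tumor transcribes receptor-induced genes of the Nr4a, Egr and AP-1 families within hours, followed by cytokines, chemokines and granzymes. Continued stimulation adds inhibitory receptors such as PD-1 and CTLA-4. T cells that recirculate through spleen, blood and lymph nodes instead keep the transcription factor KLF2 and its target S1PR1, the receptor that lets them leave lymphoid tissue.

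The tissue label of each cell rests on 1 of a pair of antibody barcodes, shown here because they define the groups. Capitals mark the 13 of 15 positions at which they differ.
Hashtag 2, MitoNegative spleen: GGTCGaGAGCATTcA
Hashtag 4, MitoNegative tumor: AAAGCaTTCTTCAcG
The median cell held 2380.5 to 4165.5 UMIs of its own hashtag and 6 to 52.5 of the next, over the 6 samples.

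Tumor samples were small. Donors 1, 2 and 3 gave 30, 85 and 116 tumor cells with 496485, 1007569 and 2855132 UMIs, and 3429, 1237 and 558 spleen cells with 26620208, 7951180 and 4198561 UMIs. Tumor cells were also deeper, at 13566.5, 10067 and 21893.5 median UMIs per cell against 7119, 5791 and 7224.5 (higher in 3 of 3 pairs, exact two-sided paired permutation p = 0.25, the smallest that 3 pairs allow). The part of this depth difference in the results below was not tested, except where cells were thinned to 3000 UMIs each. At least 1 UMI of Cd3d, Cd3e or Cd3g was present in 95.7% to 100% of tumor cells and 93.4% to 98.6% of spleen cells, and Trbv14 made up 85.3% to 96.8% of Trbv UMIs. UMIs of genes that define macrophages, melanoma cells or B cells summed to at least 3 in 490, 200 and 103 spleen cells and in 7, 11 and 17 tumor cells of donors 1, 2 and 3. In tumor sample 3, 2248 UMIs of the melanocyte gene Dct lay in 4 cells, and the summed level of the melanoma marker list was 1686 CPM (counts per 1000000 UMIs of the sample) there, against 6.04 and 8.93 CPM in the other tumor samples. Summed levels of lists use this unit throughout. CPM of single genes below are instead per 1000000 UMIs of the tested genes, scaled by the normalization factor of each sample. Those factors ran from 0.948 to 1.109 over the 6 samples. All 7 measured melanoma markers were called higher in tumor, and without donor 3 none was. Spleen samples held UMIs of the neutrophil gene S100a9 in 32, 11 and 7 cells, whereas the tumor samples held none. The libraries shared 7, 2 and 2 cell barcodes pairwise.

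UMIs were summed per sample, and each log2 fold change below is tumor over spleen within a host code. It comes from a quasi-likelihood fit in edgeR with Benjamini-Hochberg adjustment over 12047 genes and a threshold of 0.05. The value after ± is an approximate standard error, the absolute log2 fold change divided by the square root of the F statistic. Higher levels in tumor were called for 2110 genes and lower levels for 2475, together 38.1% of the genes tested (17.5% higher and 20.5% lower). The counts of gene lists below are to be read beside these shares. More than 4-fold differences were found for 507 higher and 486 lower genes, and 4379 of the 4585 called genes had the same direction in 3 of 3 donors. The median over all tested genes was -0.09. Leaving out donor 2 reduced the calls to 1312 higher and 1489 lower, and thinning each cell to 3000 UMIs reduced them to 1139 and 1023. Without cells holding at least 3 UMIs of genes that define macrophages, melanoma cells or B cells, 2020 genes were higher and 2028 lower. In the plot of all genes, cytokine and chemokine genes combined high levels with large rises.

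**Figure D1:**
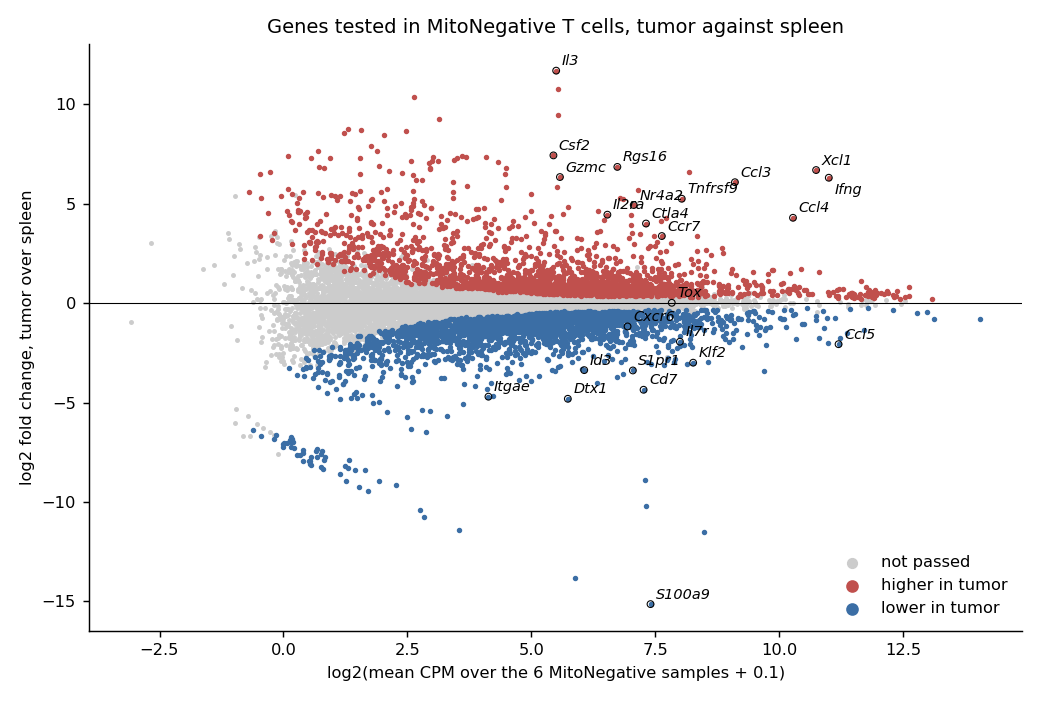
Each point is 1 of 12047 genes in MitoNegative T cells; the horizontal axis is the log2 mean CPM over 6 samples (plus 0.1) and the vertical axis the log2 fold change of tumor over spleen. Red and blue mark the 2110 higher and 2475 lower genes, and the low arm at the left holds genes with no UMI in any tumor sample, whose fitted values are not bounds.

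T cell receptor signal genes were higher in tumor. Of the 20 listed genes, 15 rose (17.5% of all genes did) and none fell, with a median log2 fold change of 2.64 beside -0.09 for all genes. In such sums, fewer cells of a type and less RNA per cell cannot be told apart. Tnfrsf9, which encodes the activation receptor 4-1BB, measured 13.8, 16.5 and 10.1 CPM in the spleen samples of donors 1, 2 and 3 and 536, 563 and 436 CPM in the tumor samples. Its groups lay far apart, with a log2 fold change of 5.26 ± 0.20 (adjusted p = 1.6e-08). Nr4a2, a nuclear receptor gene induced by receptor signals, measured 8.95, 6.73 and 9.92 CPM in spleen and 340, 228 and 212 CPM in tumor (4.94 ± 0.23). Dusp4, a phosphatase that restrains MAP kinases, rose by 5.48 ± 0.31, Il2ra, the high-affinity interleukin-2 receptor chain, by 4.45 ± 0.19, and Tnfrsf4, the costimulatory receptor OX40, by 5.67 ± 0.32. Not every receptor-induced gene moved: Egr3 (-0.07), Icos (0.01), Nfkbid (0.39), Myc (0.50) and Egr2 (1.05) did not pass the test. The largest rises outside cytokine genes included Rgs16, a regulator of G protein signalling, at 1.93, 2.00 and 1.29 CPM in spleen and 219, 199 and 216 CPM in tumor (6.86 ± 0.20).

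The list of AP-1 and dissociation genes, which tissue digestion can also induce, moved alongside. Of its 17 genes, 13 rose (76.5%, beside 17.5% of all genes) and Btg2 fell (-0.97), with a median of 1.41. Fosb rose by 5.85 ± 0.41 and Atf3 by 6.79 ± 0.51. Fos measured 7.13, 1.5 and 21.1 CPM in spleen and 63.4, 43.0 and 89.5 CPM in tumor (3.02 ± 0.61). Tumor and spleen tissue were processed apart before pooling, so tissue and handling cannot be told apart in these genes. The same holds for every other gene of this comparison, the receptor signal, cytokine and homing genes included.

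Cytokine and chemokine genes held the highest levels among the large rises. Ifng, encoding interferon-γ, measured 59.5, 41.8 and 38.0 CPM in the spleen samples and 4578, 5903 and 1702 CPM in the tumor samples. That is a log2 fold change of 6.31 ± 0.27 (adjusted p = 3.1e-08), with the lowest tumor sample far above the highest spleen sample. Ifng lies on chromosome 10 from 118441046 to 118445892 on the plus strand (GRCm38). Xcl1, a chemokine that attracts cross-presenting dendritic cells, measured 46.3, 35.2 and 16.4 CPM in spleen and 4813, 3756 and 1651 CPM in tumor (6.70 ± 0.18, adjusted p = 1.1e-09). Csf2, encoding the myeloid growth factor GM-CSF, measured 0.872, 0.624 and 0 CPM in spleen and 184, 44.0 and 31.6 CPM in tumor (7.44 ± 0.32). Both genes separated the tissues in every donor.

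Among the 9 measured cytokine genes 7 rose and Ltb fell (-1.28), and among the 7 measured chemokine genes 6 rose and Ccl5 fell. The shares that rose were 77.8% and 85.7%, beside 17.5% of all genes. Il2 rose by 2.75 and Il10 by 4.2. Il10 had only 2, 6 and 15 UMIs in tumor samples 1, 2 and 3, and 11 of the 15 lay in 1 cell. Tnf did not pass the test, at 33.1, 31.9 and 34.3 CPM in spleen and 30.7, 46.1 and 23.5 CPM in tumor (-0.05 ± 0.29, adjusted p = 0.91). Without cells holding 5 UMIs of other cell types Tnf was 1.08 and passed (adjusted p = 0.011). Ccl3 and Ccl4, encoding the inflammatory chemokines MIP-1α and MIP-1β, rose by 6.09 ± 0.30 and 4.30 ± 0.29. Ccl5, encoding the chemokine RANTES and in the same cluster on chromosome 11, measured 2784, 5237 and 2406 CPM in spleen and 929, 2586 and 184 CPM in tumor (-2.06 ± 0.37, adjusted p = 0.00096). The tissues overlapped for Ccl5 across donors, since tumor sample 2 exceeded spleen sample 3, but tumor was lower within each of the 3 pairs. Il3 had no UMI in spleen and 257 and 6 UMIs in tumor samples 2 and 3, at least 780-fold higher over pooled samples, against a floor of 3 counts. Of these, 257 UMIs lay in 3 cells of donor 2.

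**Figure D2:**
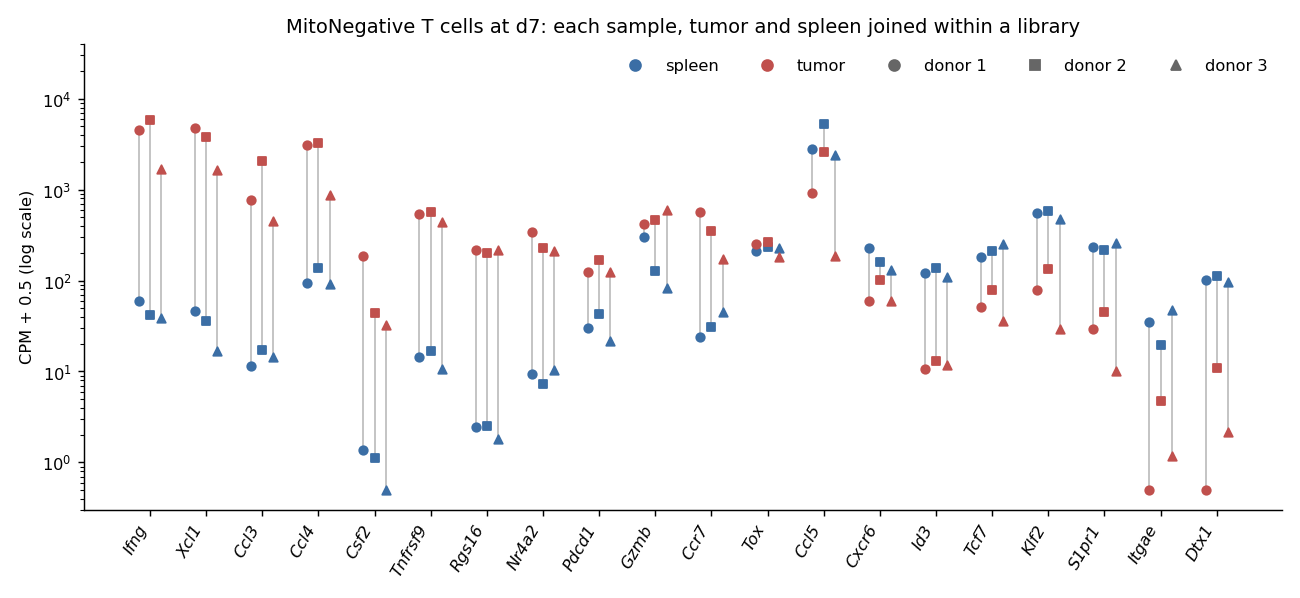
Levels of 20 genes in each sample, as CPM plus 0.5 on a log axis; blue is spleen, red is tumor, the marker shape gives the donor and a grey line joins the 2 tissues of a donor. Ifng, Xcl1 and Tnfrsf9 rise in all 3 donors, Klf2, S1pr1 and Id3 fall in all 3, and Tox stays between 180 and 263 CPM.

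The cytokine UMIs were unevenly held. In tumor, the 10% of cells with most Ifng UMIs, 3, 9 and 12 cells, held 89.8%, 81.8% and 84.8% of all Ifng UMIs in donors 1, 2 and 3. A single cell of donor 1 held 1297 of 2237 Ifng UMIs. The same measure for Csf2 was 87.8%, 92.9% and 92.6%, and for Ccl4 81.1%, 80.6% and 86.4%. Some activation genes were spread more widely in these cells: Tnfrsf9 gave 34.4%, 29.1% and 26.8%, Nr4a2 32.5%, 37.3% and 32.1%, and Bhlhe40, a transcription factor of cytokine-producing T cells, 25.3%, 31.8% and 28.0%. Not every gene followed this split: Xcl1 gave 59.8%, 66.8% and 57.8%, Tnf 80%, 47.7% and 54.3%, and Nr4a1 49.2%, 42.9% and 39.6%. These values compare genes of different levels and carry no test.

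**Figure D3:**
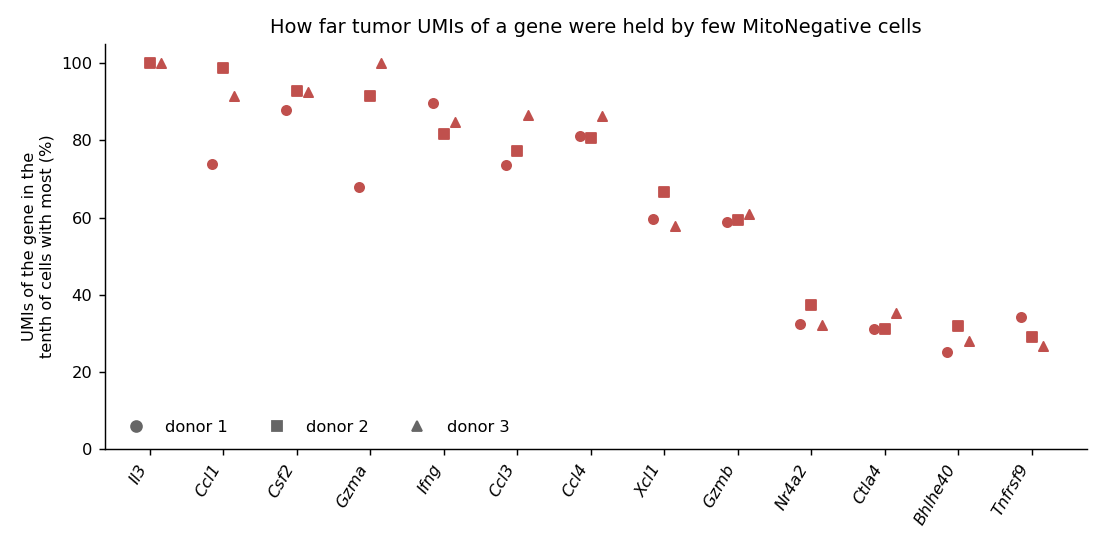
Percentage of a gene's tumor UMIs found in the 10% of MitoNegative tumor cells with most of them, per donor (marker shape). Csf2, Ifng, Ccl3 and Ccl4 lie at 73.7% or more in each donor, whereas Nr4a2, Ctla4, Bhlhe40 and Tnfrsf9 lie at 37.3% or less. Xcl1 lies between them, at 59.8%, 66.8% and 57.8%. Il3 could only lie at 100%, since 3 and 4 cells of donors 2 and 3 held it and the 10% are 9 and 12 cells.

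Shares of cells with a UMI were compared after thinning every cell to 3000 UMIs, which left out 375, 83 and 17 spleen cells and 1, 3 and 2 tumor cells. Tnfrsf9 was then found in 3.18%, 3.38% and 2.96% of spleen cells and 55.2%, 69.5% and 69.3% of tumor cells. Ifng was found in 13.9%, 9.88% and 11.1% of spleen cells and 34.5%, 46.3% and 38.6% of tumor cells. Without thinning these Ifng shares were 26.6%, 18% and 20.3% in spleen and 50%, 64.7% and 72.4% in tumor. Spleen and tumor cells of a donor were in the same library, and the part of free RNA in these shares was not tested. Tumor sample 1 rests on 29 thinned cells: its exact 95% binomial interval runs from 17.9% to 54.3% for Ifng and covers counting error only. In donor 1, 2 of the 30 genes examined, both called higher by their summed counts, had lower thinned shares in tumor, so no order is read from those shares. Gzmb was found in 40.6% of spleen and 34.5% of tumor cells, and Prf1 in 10.8% of spleen cells and in 0 of 29 tumor cells, which allows a share of up to 10.3%.

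**Figure D4:**
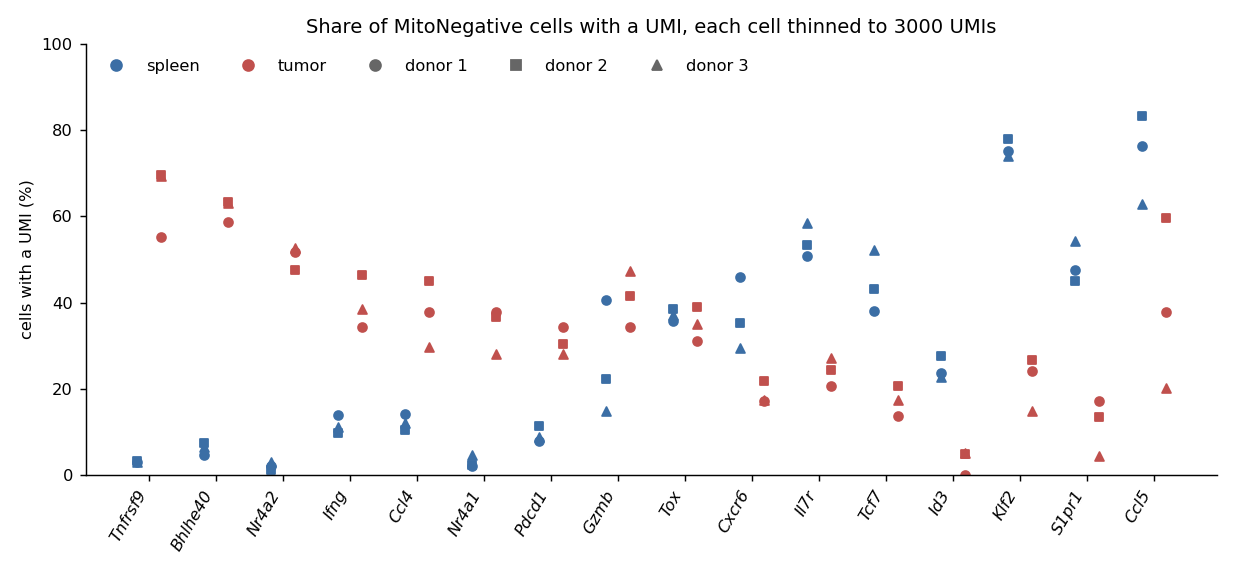
Share of MitoNegative cells with at least 1 UMI of each of 16 genes after thinning every cell to 3000 UMIs; blue is spleen, red is tumor and the marker shape gives the donor. Tnfrsf9, Bhlhe40 and Nr4a2 go from 1.21% to 7.37% of spleen cells to 47.6% to 69.5% of tumor cells, Klf2 goes from at least 73.9% to at most 26.8%, and Tox overlaps.

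Of 14 cytotoxic genes 7 were higher (50%, beside 17.5% of all genes) and 4 lower (28.6%, beside 20.5%), with a median of 0.81. Gzmb, the main granzyme of effector T cells, measured 303, 125 and 81.5 CPM in spleen and 413, 464 and 598 CPM in tumor (1.76 ± 0.35, adjusted p = 0.0020). The groups did not overlap, although in donor 1 the levels were close. Gzmc, a granzyme of strongly stimulated T cells, rose from 0.834, 1.75 and 0.431 CPM to 53.2, 133 and 96.9 CPM (6.35 ± 0.25). Serpinb6b, a protease inhibitor gene, rose by 2.86 ± 0.15, and Prf1, the pore protein perforin, by 1.14 ± 0.24.

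Gzmm fell by 2.76 ± 0.41 and Gzmk by 1.54 ± 0.43. Gzmk had only 0, 6 and 4 UMIs in tumor samples 1, 2 and 3. Its tissues overlapped, since its level in tumor sample 2 exceeded that in spleen sample 3. Gzma depended on 1 donor: it measured 218, 350 and 342 CPM in spleen and 499, 674 and 14.8 CPM in tumor (-0.27 ± 0.81, adjusted p = 0.82). Without donor 3 the log2 fold change of Gzma was 1.12 and passed the test. Granzyme genes b, c and f are similar neighbours on chromosome 14, and reads shared between them were not resolved here.

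Inhibitory receptor genes were mostly higher: 7 of 12 measured members rose (58.3%, beside 17.5% of all genes) and Btla fell (-1.16). Ctla4 measured 15.2, 18.8 and 21.6 CPM in spleen and 229, 338 and 333 CPM in tumor (4.01 ± 0.16). Pdcd1, encoding PD-1, measured 29.8, 42.8 and 21.3 CPM in spleen and 125, 170 and 124 CPM in tumor (2.20 ± 0.16). Neither gene overlapped between tissues. Lag3 rose by 1.99 ± 0.19, Havcr2 by 1.80 ± 0.34 and Tigit by 2.75 ± 0.49, while the ectonucleotidase gene Entpd1 (-0.20 ± 0.27) did not pass the test. Without cells holding 5 UMIs of other cell types Entpd1 was 1.38 and passed (adjusted p = 0.0069).

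Among costimulatory receptors 4 of 11 rose, Tnfrsf4 and Tnfrsf9 included, and 5 fell. The shares were 36.4% higher and 45.5% lower, beside 17.5% and 20.5% of all genes. Cd226, an activating receptor that shares ligands with TIGIT, fell by 1.81 ± 0.17 and Slamf6 by 2.23 ± 0.31. Transcription factors linked with exhaustion and activation rose in 53.8% of cases and fell in 15.4%, beside 17.5% and 20.5% of all genes. Of 13, 7 rose and 2 fell: Bhlhe40 by 4.11 ± 0.16, Irf8 by 3.92 ± 0.26 and Nfil3 by 2.95 ± 0.26 upward, and Ikzf3 (-1.62) and Maf (-1.45) downward. Tox, a regulator of T cell exhaustion, measured 209, 235 and 229 CPM in spleen and 254, 263 and 180 CPM in tumor. Its tissues overlapped (0.02 ± 0.18, adjusted p = 0.94).

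Lymphoid homing and egress genes were mostly lower in tumor. Of 12 lymphoid homing and egress genes 8 fell (66.7%, beside 20.5% of all genes) and 1 rose, with a median of -2.21. Klf2 measured 552, 579 and 477 CPM in spleen and 77.8, 133 and 28.9 CPM in tumor (-2.99 ± 0.28, adjusted p = 9.4e-06), without overlap. S1pr1 measured 232, 218 and 262 CPM in spleen and 28.6, 45.1 and 9.75 CPM in tumor (-3.38 ± 0.36). S1pr5 had 203 UMIs in spleen and none in tumor, at least 7.61-fold lower against a floor of 3 counts over the pooled tumor samples. The 1 gene of this list that rose was Ccr7, the receptor for lymph node entry, at 23.5, 30.4 and 44.4 CPM in spleen and 571, 352 and 171 CPM in tumor (3.38 ± 0.37, adjusted p = 3.1e-05).

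Stem and memory genes were mixed. Of 18, 9 fell (50%, beside 20.5% of all genes), 3 rose (16.7%, beside 17.5%) and 6 did not pass. Their median was -1.43. Their summed level was 1937, 2361 and 3202 CPM in spleen and 2288, 2139 and 1284 CPM in tumor, which overlapped (higher in 1 of 3 pairs, exact paired permutation p = 0.75). Id3, a repressor of effector differentiation, measured 121, 137 and 110 CPM in spleen and 10.2, 12.6 and 11.4 CPM in tumor (-3.37 ± 0.18). Tcf7, encoding TCF-1, fell by 2.08 ± 0.23 and Il7r, the receptor for the survival cytokine interleukin-7, by 1.94 ± 0.23, neither with overlap between tissues. Bach2 (1.54) and Myb (2.06), which also belong to the list, rose together with Ccr7. Leaving out donor 3 changed the list to 6 higher and 7 lower.

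Tissue residency genes did not move as a group. Of 13, 7 rose (53.8%, beside 17.5% of all genes) and 4 fell (30.8%, beside 20.5%). The rising members included Rgs16, Xcl1, Rgs2 (3.26) and Cd69 (1.15). Itgae, the integrin chain CD103 that retains T cells in epithelia, measured 34.2, 18.8 and 47.0 CPM in spleen and 0, 4.19 and 0.673 CPM in tumor (-4.70 ± 0.68). Cxcr6 measured 230, 158 and 129 CPM in spleen and 59.3, 102 and 59.2 CPM in tumor (-1.17 ± 0.20). Both were lower in each tumor sample than in any spleen sample.

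Integrin and adhesion genes fell in 9 of 14 cases, Itgb7 by 2.96 ± 0.24, while Itgav rose by 2.34 ± 0.17. S100, annexin and galectin genes fell in 10 of 14 cases. The integrin and S100 lists thus fell in 64.3% and 71.4% of cases, beside 20.5% of all genes. S100a4, a calcium-binding protein gene of migrating effector cells, measured 3622, 3481 and 2546 CPM in spleen and 520, 1252 and 725 CPM in tumor (-2.01 ± 0.20). The chemokine receptor genes Cxcr3 and Ccr2, which guide T cells to inflamed tissue, fell by 2.38 ± 0.18 and 1.92 ± 0.26. The largest falls by the naming rule were Dtx1, a ubiquitin ligase of the Notch pathway, at 101, 111 and 95.3 CPM in spleen and 0, 10.5 and 1.68 CPM in tumor (-4.81 ± 0.38), followed by Rnf144a (-4.65) and Cd7 (-4.35).

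Interferon response genes were lower in tumor, where Ifng was higher. Of 26 measured genes 21 fell (80.8%, beside 20.5% of all genes) and none rose, with a median of -1.28. Ifit3, an antiviral gene induced by type I interferon, measured 80.5, 33.9 and 37.3 CPM in spleen and 6.14, 3.15 and 5.72 CPM in tumor (-3.06 ± 0.28). Genes that interferon-γ also induces fell too, among them Gbp2 (-1.57) and Irgm1 (-1.18), whereas Irf1 (-0.37) did not pass the test. The summed level of the list was 6431, 4201 and 3885 CPM in spleen and 1909, 2283 and 1647 CPM in tumor, without overlap.

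**Figure D5:**
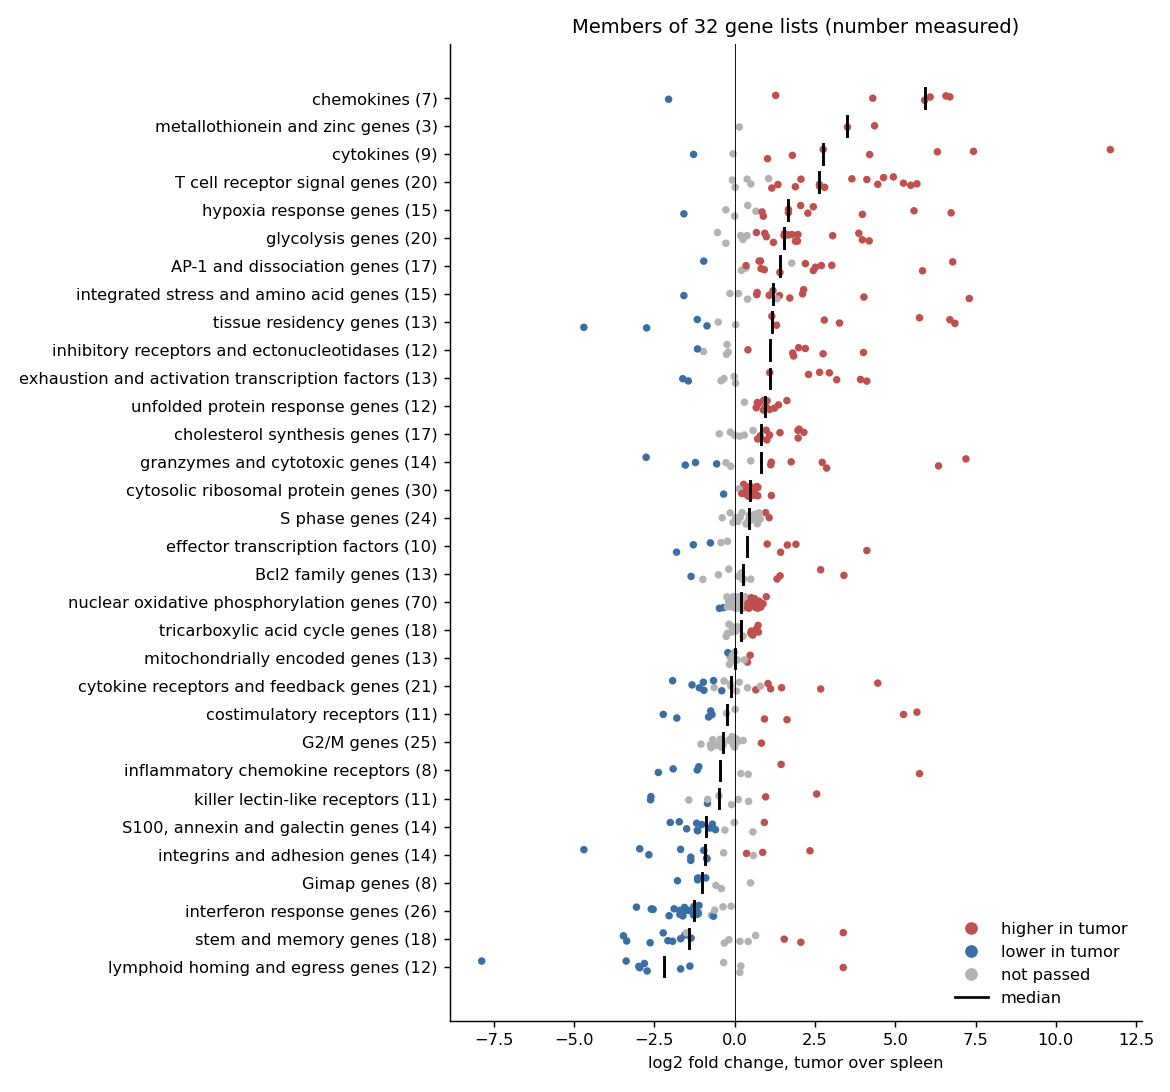
Log2 fold change of tumor over spleen for the measured members of 32 gene lists, ordered by their median (black bar); red and blue mark members called higher or lower and grey those that did not pass. Chemokines lie highest, with a median of 5.92, and lymphoid homing and egress genes lowest, with -2.21; some genes belong to more than 1 list.

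Glycolysis genes rose in 15 of 20 cases (75%, beside 17.5% of all genes) and none fell, with a median of 1.54. Hk2, the inducible hexokinase, measured 11.3, 7.61 and 8.41 CPM in spleen and 180, 127 and 200 CPM in tumor (4.19 ± 0.20). Tpi1 rose by 3.05 ± 0.22 and the lactate exporter gene Slc16a3 by 3.86 ± 0.33, whereas the glucose transporter gene Slc2a3 (0.18) and Pdk1 (-0.28) did not pass the test. Hypoxia response genes rose in 10 of 15 cases (66.7%, beside 17.5% of all genes). Among tumor samples, however, Vegfa had UMIs in sample 3 alone.

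Of 18 tricarboxylic acid (TCA) cycle genes 8 rose and none fell, with a median of 0.20, a share of 44.4% higher beside 17.5% of all genes. Their summed level was higher in tumor in 3 of 3 pairs (exact paired permutation p = 0.25). The count of TCA cycle genes that rose was 4 without donor 1, 2 without donor 2, 1 with thinned cells and 0 without cells holding 5 UMIs of other cell types. Of 70 nuclear oxidative phosphorylation genes 20 rose and 2 fell, with a median of 0.20. The share higher was 28.6%, beside 17.5% of all genes. The summed level of this list was 25540.1, 24062.5 and 20787.6 CPM in spleen and 24598.9, 24829.1 and 27986.1 CPM in tumor. These sums overlapped, and tumor was higher in 2 of 3 pairs (exact paired permutation p = 0.75). Mitochondrially encoded RNA made up 2.08%, 1.70% and 1.77% of tumor UMIs and 2.03%, 2.12% and 1.93% of spleen UMIs, which overlapped (exact paired permutation p = 0.5). Among the 13 mitochondrially encoded genes mt-Nd3 (0.48) and mt-Nd1 (0.40) rose and mt-Atp6 fell by 0.21. Those shares, 15.4% higher and 7.69% lower, lay below the 17.5% and 20.5% of all genes. Without donor 1 none of the 13 passed.

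Protein production and stress genes were higher. In the lists of this paragraph 64.7% to 93.3% of genes rose, beside 17.5% of all genes. Unfolded protein response genes rose in 11 of 12 cases, with Hspa5, the chaperone BiP, at 261, 171 and 181 CPM in spleen and 630, 605 and 618 CPM in tumor (1.62 ± 0.13). Cytosolic ribosomal protein genes rose in 28 of 30 cases by small amounts, with a median of 0.48. Integrated stress and amino acid genes rose in 10 of 15 cases, Asns, asparagine synthetase, by 4.02 ± 0.39, while Ddit4 fell (-1.58). Cholesterol synthesis genes rose in 11 of 17 cases, Idi1 by 2.15 ± 0.17. The metallothionein genes Mt1 and Mt2 rose by 3.51 ± 0.60 and 4.36 ± 0.61, and Mt1 ranged from 36.8 to 583 CPM over the tumor samples. The summed metallothionein and zinc list measured 30.7, 13.1 and 29.1 CPM in spleen and 52.4, 137 and 756 CPM in tumor. A single cell held 570 of 1734 Mt1 UMIs in tumor sample 3, and another 266 of 598 in spleen sample 1.

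Bcl2 family genes moved in both directions. Bcl2, a survival gene maintained in resting T cells, fell by 1.36 ± 0.20, while the activation-induced relatives Bcl2a1d and Bcl2a1b rose by 3.40 ± 0.17 and 2.68 ± 0.17. The last pair are near-identical copies, and the division of reads between them is uncertain. Proliferation genes mostly did not pass the test: 2 of 24 S phase genes and 1 of 25 G2/M genes rose. Those shares of 8.33% and 4% lay below the 17.5% of all genes. Mki67 measured 180, 92.7 and 104 CPM in spleen and 57.3, 40.9 and 114 CPM in tumor (-0.74 ± 0.29, adjusted p = 0.067). The tissues overlapped, and tumor sample 3 stood apart: without donor 3, 17 G2/M genes and 4 S phase genes were lower in tumor. Over all genes 1800 were lower in that setting, and the S phase count is not read as a result about those genes.

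The same tissue comparison in the MitoPositive arm, from different host codes, called 47.8% of genes. In all 3754 genes were called in the same direction in both arms, 81.9% of the MitoNegative and 65.3% of the MitoPositive calls, and 9 in opposite directions. The difference between the tissue effects passed the test for 2 genes (0.0166%), and 1205 had an unadjusted p under 0.05. The tumor effect on Il2ra was larger in the MitoNegative arm (4.45 against 2.57, difference 1.88 ± 0.25, adjusted p = 0.049). Mean spleen levels of Il2ra were 8.27 CPM in the MitoNegative and 29.9 CPM in the MitoPositive arm, beside tumor levels of 177 and 169 CPM. Nrgn, encoding a calmodulin-binding protein, rose less in the MitoNegative arm (5.23 against 8.08, difference -2.85 ± 0.38, adjusted p = 0.049). Mean spleen levels of Nrgn were low, at 6.20 CPM in the MitoNegative and 1.16 CPM in the MitoPositive arm, beside tumor levels of 223 and 475 CPM. The MitoPositive spleen sample of donor 3 held only 50 cells, which limits every difference between the arms. Ifng rose by 6.31 and 4.45 in the 2 arms, a difference of 1.86 ± 0.34 that did not pass (adjusted p = 0.077). For Mki67 the values were -0.74 and 1.23, and the difference of -1.97 ± 0.41 did not pass either (adjusted p = 0.10). The number of genes passing this test was unstable: 0 with DESeq2 size factors, 63 with DESeq2 and 716 without donor 3. Arm and host cannot be told apart.

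Promoter sequence was read for the named genes. Of the 163 named genes 127 had a promoter in the RefSeq table (GRCm38.p6), and the 250 bases before the start were searched on both strands for AP-1 (TGANTCA), a cyclic AMP response element (TGACGTCA), an NR4A site (AAAGGTCA), a KLF site (CCACCC) and an NF-κB consensus site. These motifs were present in 6.75%, 1.55%, 1.34%, 28.1% and 0.0852% of 32851 promoters. CCACCC was found for 8 of the 9 genes with the largest falls that had a promoter and for 3 of the 10 with the largest rises, counting a gene if any of its 1 to 4 promoters matched. The shares above count single promoters, so they are not the same measure as these gene counts. No AP-1, NR4A or NF-κB site was found for those 10 rising genes. AP-1 was found for 1 of the 9 falling genes, and the cyclic AMP response element for 1 gene of each set. Members were chosen by their fold change and no test was made. One of the largest falls, Klf2 itself and a pair of the largest rises are printed 5′ to 3′ on the gene's strand, with capitals marking CCACCC or its reverse complement and, in Gzmc, TGACGTCA.
Dtx1, chr5:120711670-120711919, minus strand: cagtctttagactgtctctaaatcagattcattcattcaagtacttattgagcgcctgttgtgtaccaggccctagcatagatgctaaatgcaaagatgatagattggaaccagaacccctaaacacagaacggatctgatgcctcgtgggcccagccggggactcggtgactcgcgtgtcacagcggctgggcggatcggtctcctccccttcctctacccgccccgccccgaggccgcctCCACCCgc
Klf2, chr8:72318812-72319061, plus strand: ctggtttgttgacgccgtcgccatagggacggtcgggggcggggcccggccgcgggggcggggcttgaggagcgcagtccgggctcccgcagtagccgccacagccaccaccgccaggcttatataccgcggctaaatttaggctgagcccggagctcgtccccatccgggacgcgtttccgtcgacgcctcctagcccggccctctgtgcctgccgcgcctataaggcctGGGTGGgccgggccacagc
Xcl1, chr1:164935523-164935772, minus strand: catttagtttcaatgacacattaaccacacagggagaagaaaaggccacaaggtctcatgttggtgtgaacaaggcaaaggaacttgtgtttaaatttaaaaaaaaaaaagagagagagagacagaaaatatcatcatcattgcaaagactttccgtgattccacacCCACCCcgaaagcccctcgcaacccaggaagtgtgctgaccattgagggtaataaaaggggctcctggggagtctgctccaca
Gzmc, chr14:56234658-56234907, minus strand: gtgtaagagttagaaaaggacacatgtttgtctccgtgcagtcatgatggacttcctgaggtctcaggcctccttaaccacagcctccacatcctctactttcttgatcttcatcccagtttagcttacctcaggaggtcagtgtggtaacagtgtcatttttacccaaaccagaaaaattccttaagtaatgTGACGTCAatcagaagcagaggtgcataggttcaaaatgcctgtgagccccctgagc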

How the data were processed

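Single-cell 3′ RNA and hashtag libraries of the 3 d7 pools were used. The deposited matrices hold UMI counts that are not normalized. Tools listed in the submitters' processing notes are Cell Ranger 7.0.0 and Seurat 4.0.5, and the build is mm10 (GRCm38). Counts of cells passing the limits in the report were summed per hashtagged sample, and 5.35%, 3.15% and 2.52% of passing barcodes without 1 clear hashtag were left out. No doublet caller was run beyond the hashtag rule. The 12 d7 samples were fitted together in edgeR 4.0.16 (R 4.3.3) with filterByExpr, TMM scaling and host code (library by arm) as a block. Tissues were paired because the deposited hashtag list gives them the same host code; deviations from group means correlated at 0.0977, 0.113 and 0.159 within donors and at -0.229 to 0.0952 between donors. The fit was also run on simulated counts with few changed genes and no host effects. That setting differs from these data and cannot vouch for the calls here. Of the 32285 gene IDs 32158 matched GENCODE M21. Named genes were the 12 largest rises and falls (at least 20 CPM in every sample of the higher group, same direction in 3 of 3 donors, no marker of another cell type), 30 key genes, up to 4 genes of each of 32 lists, and up to 3 markers of each of 12 cell type lists; any other list member was named after its value was seen. A few members of the lists are counted but not reported by name here. Members and lists were chosen with earlier results of these data known. Alternatives covered scaling, test, count filter, block, hashtag caller (HTODemux, Seurat 5.3.0), cell filters, thinning and each donor left out; 3 alternatives on cells were chosen after seeing the data.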

Additional observations from a re-analysis of the deposited data

Results flagged for a closer look

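Il2ra, with a difference of 1.88 between the tissue effects of the MitoNegative and MitoPositive arms, and Nrgn, with -2.85, were the 2 genes whose difference passed the test across all genes. Zeb2, a transcription factor of effector T cells, rose in the MitoNegative tumor samples (1.64 ± 0.26) and was lower in the MitoPositive ones (-0.84), in opposite directions in every donor. Its difference of 2.48 ± 0.36 did not pass the test (adjusted p = 0.066). In the MitoNegative arm Zeb2 measured 36.7, 65.7 and 67.9 CPM in spleen and 147, 182 and 192 CPM in tumor.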

How the results depend on the processing

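Genes higher and lower in tumor numbered 1312 to 1845 and 1489 to 1800 when each donor was left out, 1366 and 1453 without cells holding 5 UMIs of other cell types, and 1139 and 1023 with thinned cells. That cell filter also removed T cells, since its lists hold genes that T cells express. With no replicate block the counts were 2333 and 2702 and the difference between arms again passed for 2 genes. The genes whose tissue effect differed between arms, 2 in the report, numbered 0 with DESeq2 size factors, 63 with DESeq2, 488 with no count filter, 1 to 716 when each donor was left out, 0 with a replicate block by library only, 8 with a hashtag ratio of 5, 4 with HTODemux, 29 without cells holding 5 UMIs of other cell types, 13 without cells above 40000 UMIs, 55 with thinned cells and 43 with Trbv14 cells; the cause was not tested. DESeq2 size factors moved the median of that difference over all genes from -0.09 to 0.01. Of 158 called genes named by the rule, 108 kept call and direction in every alternative that tested them (135 to 158 of the genes per alternative), 50 lost the call at least once and 9 reversed at least once. Without cells holding 5 UMIs of other cell types, Tnf was 1.08 and Entpd1 1.38, both past the threshold, and Cst3 was -0.58, which did not pass. Leaving out each donor gave ranges whose end without donor 3 had the other sign: Gzma -1.45 to 1.12, Vegfa -3.00 to 6.58, Dct -7.96 to 7.56, Tyrp1 -7.43 to 7.41, Syngr1 -5.43 to 6.24, Hba-a1 -6.48 to 1.02, and the Trbv14 difference -3.61 to 5.72 percentage points. C1qa was 0.0299 without cells holding defining genes of other cell types and 0.0314 when cells above 40000 UMIs were also removed. Csf1r was 0.19 in cells with a Cd3 UMI and 0.49 with thinned cells. The 30 tumor cells of donor 1 limit every value of that sample.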

Other observations

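Among CD8 T cell markers 8 of 12 were lower in tumor (66.7%, beside 20.5% of all genes) and none higher. Their median was -0.42, with Cd8b1 at -1.34 and Lck at -1.20. Trac (-0.03) and Trbc2 (0.15) did not pass the test. B cell markers were lower in 5 of 10 cases and macrophage markers in 4 of 17, shares of 50% and 23.5% beside 20.5% of all genes. Cst3 of the macrophage list was higher (1.43), but -0.58 without cells holding 5 UMIs of other cell types. Pf4, a platelet gene, had 50 UMIs in tumor sample 1, all in 1 cell. Gimap genes, which support lymphocyte survival, were lower in 5 of 8 cases (62.5%, beside 20.5% of all genes), Gimap8 by -1.78 ± 0.26.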
